A study of Homo sapiens with 6 samples.

Results

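The 42 genes described here serve protein folding and folding stress and were followed in A375SM melanoma cells with and without a hairpin against PRAME. They were chosen as a list of symbols, and all 42 were found among 40895 gene identifiers: 25 are chaperones, sensors and degradation factors of the endoplasmic reticulum (ER), and 17 are heat shock genes whose products work in the cytosol, the nucleus or the mitochondria. A375SM is a human melanoma line derived from A375 cells that had spread. Of the 6 libraries, 3 came from cells with a control hairpin (shCtrl) and 3 from cells whose short hairpin RNA targets PRAME (shPRAME). Both groups carry the genotype label WT and the same batch label, and no drug, heat or other stress treatment is named for either. PolyA RNA was sequenced as read pairs of 150 bases. The number of hairpins, of transductions and of cell clones behind a group is not given in the sources used here, so p-values rest on the spread among 3 libraries a group, and that spread may be technical.

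The ER folds secreted and membrane proteins. HSPA5 (BiP) and HSP90B1 (GRP94) hold unfolded chains there, calreticulin and calnexin bind chains through their sugars, and disulfide isomerases join cysteines. When unfolded chains build up, the sensors IRE1 (ERN1), PERK (EIF2AK3) and ATF6 start the unfolded protein response, which slows translation and raises transcription of chaperone and degradation genes, in part through the factor XBP1. The heat shock response serves the cytosol and nucleus: HSF1 binds heat shock elements and drives the inducible HSP70 genes HSPA1A and HSPA1B together with HSP90, HSP110, HSP40 and small heat shock protein genes. HSPD1 and HSPE1 form the folding chamber of the mitochondrial matrix.

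Library totals ranged from 30842788 to 34107332 counts. Levels are given as CPM, a gene's counts relative to the library total after TMM scaling, and log2 fold changes are shPRAME over shCtrl. PRAME itself stood at 166.4, 163.9 and 164.8 CPM in the shCtrl libraries and 57.7, 57.8 and 53.8 CPM in the shPRAME libraries, so that its mean level in shPRAME was 34.2% of that in shCtrl. Of 11 melanocyte and melanoma markers 6 were tested, of which S100A1 and MCAM were higher, MITF, S100B and CSPG4 lower, and SOX10 did not pass. SOX10 stood at 265.7 ± 7.95 CPM in shCtrl and 275.4 ± 1.48 CPM in shPRAME (mean ± SD, n = 3 each, as in all such values below), MITF at 44.6 ± 1.38 CPM in shCtrl and 37.7 ± 0.740 CPM in shPRAME, S100B at 54.0 ± 0.629 CPM in shCtrl and 28.2 ± 1.26 CPM in shPRAME, CSPG4 at 813.4 ± 42.9 CPM in shCtrl and 562.4 ± 10.4 CPM in shPRAME and MCAM at 231.4 ± 3.32 CPM in shCtrl and 449.9 ± 6.22 CPM in shPRAME. The pigment genes MLANA, PMEL, TYR, DCT and TYRP1 had group means of at most 0.272 CPM. Of 9 fibroblast markers 5 were higher and 2 lower of 7 tested, with a median log2 fold change of 2.08. COL1A2 had 0 counts in every shCtrl library and 718, 735 and 704 in shPRAME, and LUM had 0, 1 and 0 and then 303, 342 and 347, whereas PDGFRB fell from 64.3 ± 1.86 to 17.4 ± 1.32 CPM and FAP fell 1.71-fold (log2 fold change -0.77). The sum of the list, 112.5 to 116.5 CPM in shCtrl and 88.1 to 95.3 CPM in shPRAME, was mostly PDGFRB and FAP in shCtrl. All 3 tested of 7 leukocyte markers were higher, with a sum of 43.0 to 45.4 and 72.4 to 74.3 CPM that is mostly CD68 (43.9 ± 1.16 CPM in shCtrl and 70.7 ± 0.767 CPM in shPRAME). Both tested of 6 keratinocyte markers were lower, with a sum of 29.3 to 30.6 and 23.4 to 24.5 CPM. Of 6 endothelial markers 1 of 2 tested was higher, with a sum of 0.292 to 0.947 and 3.01 to 3.85 CPM. Markers without a count in any library included KRT5, KRT1, TP63, CD3E, NKG7, CDH5 and CLDN5. The part of these markers in the chaperone differences was not tested.

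RefSeq windows of 300 bases, from 250 before to 50 after a gene's start (assembly GRCh38.p14, as for all positions below), were found for 39 of the 42 genes. For 10 of them the table lists several starts, and the first listed was used. The start used lies inside the gene's full span by 20273 bases for CANX, 31120 bases for DNAJB1 and 5227 bases for PDIA6. It lies inside by at most 681 bases for EIF2AK3, HSPA8 and PDIA4. Of these, EIF2AK3 and HSPA8 have only 1 listed start each. The windows were searched on both strands for the ER stress response elements, to which NF-Y and ATF6 or XBP1 are known to bind. The ERSE reads CCAAT, 9 bases of any kind and CCACG, and the ERSE-II reads ATTGG, 1 base of any kind and CCACG. At least 1 of them was found in 10 of 24 ER windows (41.7%), in 0 of 15 heat shock windows and in 37 of 27305 windows of all genes (0.136%). Over every listed window of each gene it was 11 of 24 ER genes, PDIA6 being added, 0 of 15 heat shock genes and 0.161% of all genes. These elements were first described on ER chaperone promoters, so the share among the ER genes is a property of the list and no result of these cells. The sites are shown here in the direction of the element, with a few bases on either side and the letters that the element fixes in capitals. That of CANX lies before an internal start. The sites are given because the unfolded protein response is known to act through such elements, and whether it did so here was not tested.
HSPA5 (chr9:125241386-125241414, strand -): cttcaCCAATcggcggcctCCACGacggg
HSP90B1 (chr12:103930211-103930239, strand +): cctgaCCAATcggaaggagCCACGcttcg
HSP90B1 (chr12:103930316-103930344, strand -): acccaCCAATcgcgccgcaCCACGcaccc
XBP1 (chr22:28800598-28800626, strand -): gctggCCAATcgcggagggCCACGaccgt
CALR (chr19:12938379-12938407, strand -): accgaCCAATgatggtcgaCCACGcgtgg
CANX (chr5:179698773-179698801, strand +): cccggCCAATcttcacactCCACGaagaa
ERO1B (chr1:236282178-236282206, strand +): ggcggCCAATgaggcgggaCCACGcgggc
CRELD2 (chr22:49918549-49918577, strand -): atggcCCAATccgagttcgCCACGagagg
HYOU1 (chr11:119057375-119057395, strand +): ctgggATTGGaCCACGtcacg
HYOU1 (chr11:119057269-119057289, strand +): tactcATTGGaCCACGtccca
HERPUD1 (chr16:56932020-56932040, strand +): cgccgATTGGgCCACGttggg
SDF2L1 (chr22:21642109-21642129, strand -): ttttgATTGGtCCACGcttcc

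HSP90B1 and HYOU1 hold 2 sites each. In HSPA5 the site lies 66 bases before the start. The 250 bases before the start are given whole as an example of the class, with the element and its spacer in capitals.
HSPA5 (chr9:125241344-125241593, strand -): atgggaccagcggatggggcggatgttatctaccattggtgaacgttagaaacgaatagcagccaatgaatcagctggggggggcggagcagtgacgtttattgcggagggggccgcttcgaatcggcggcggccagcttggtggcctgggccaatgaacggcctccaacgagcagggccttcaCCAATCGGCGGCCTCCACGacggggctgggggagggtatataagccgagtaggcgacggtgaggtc

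The listed members of both classes were higher in total in the knockdown cells, but few of these genes moved far. The 42 genes summed to 17082 ± 136.7 CPM in shCtrl and 19927 ± 6.29 CPM in shPRAME, which was 1.68% and 2.03% of all counts. The ER genes stood at 6466, 6604 and 6606 CPM in the shCtrl libraries and 7490.1, 7366 and 7271 CPM in the shPRAME libraries. The heat shock genes stood at 10461, 10586 and 10521 CPM in shCtrl and 12440.1, 12553 and 12660 CPM in shPRAME. For each class every shPRAME library lay above every shCtrl library. HSP90AA1 alone made up 70.4% of the heat shock gain. Other cytosolic and mitochondrial chaperone genes, listed apart, summed to 8440 to 8603 CPM in shCtrl and 8556 to 8653 CPM in shPRAME, with overlap. Other ER genes summed to 7378 to 7519 CPM in shCtrl and 7624 to 7741 CPM in shPRAME, without overlap. Bulk RNA cannot tell a change in the RNA of each cell from a change in the share of cells in a given state.

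**Figure D1:**
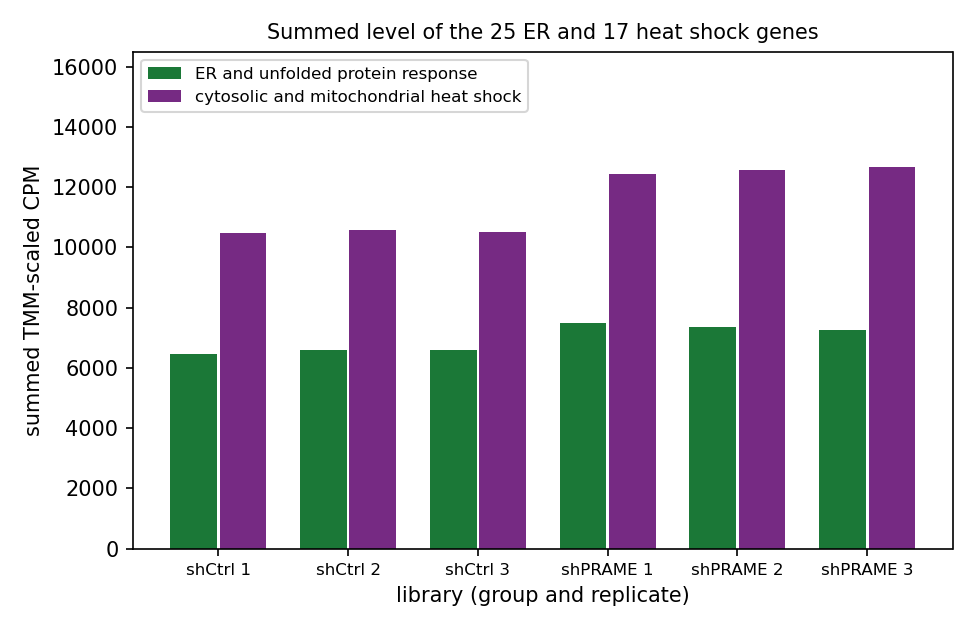
Summed TMM-scaled CPM (vertical axis, from 0) of the 25 ER genes (green) and the 17 heat shock genes (purple) in each of the 6 libraries. The heat shock bars rise from 10461 to 10586 CPM in shCtrl to 12440.1 to 12660 CPM in shPRAME, and the ER bars from 6466 to 6606 to 7271 to 7490.1 CPM.

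All 42 genes passed the filter on low counts and were tested. At an edgeR adjusted p under 0.05, 24 were higher in shPRAME, 10 were lower and 8 did not pass. The background is high in this comparison: 74.4% of the 15954 genes tested passed, 37.7% higher and 36.8% lower, and shCtrl and shPRAME libraries were fully apart at 76.5% of genes, against 34 of the 42 here (81.0%). A share of 81.0% called among the members is therefore close to that of all genes. Of the ER genes 15 rose, 7 fell and 3 did not pass (median log2 fold change 0.15). Of the heat shock genes 9 rose, 3 fell and 5 did not pass (median 0.086), and the median over all tested genes was 0.0061.

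The range of change was wider among the heat shock genes, a difference that was not tested. Every ER gene lay between -0.55 and 0.84 on the log2 scale, so none changed 2-fold. Among the heat shock genes 4 of 17, HSPA1A, HSPA1B, HSPA4L and CRYAB, were at least 2-fold higher (23.5%), none was 2-fold lower, and the values ran from -0.68 to 2.69. Of all genes 18.6% changed 2-fold or more, 10.1% upwards and 8.43% downwards. This share was not computed for genes of matched level. Among the 4 heat shock genes, HSPA1A and HSPA1B are near-identical copies whose reads can be divided wrongly, and CRYAB had 7, 16 and 14 counts in shCtrl. The median size of change, without regard to sign, was 0.29 for either class. It was 0.38 for all tested genes and 0.29 for the 9487 tested genes with a mean of at least 10 CPM. When the test asked for a change beyond 1.2-fold (edgeR's glmTreat), 11 of 25 ER genes (8 higher, 3 lower) and 7 of 17 heat shock genes (6 higher, 1 lower) passed, against 48.4% of all genes. No test over the members as a group was made.

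**Figure D2:**
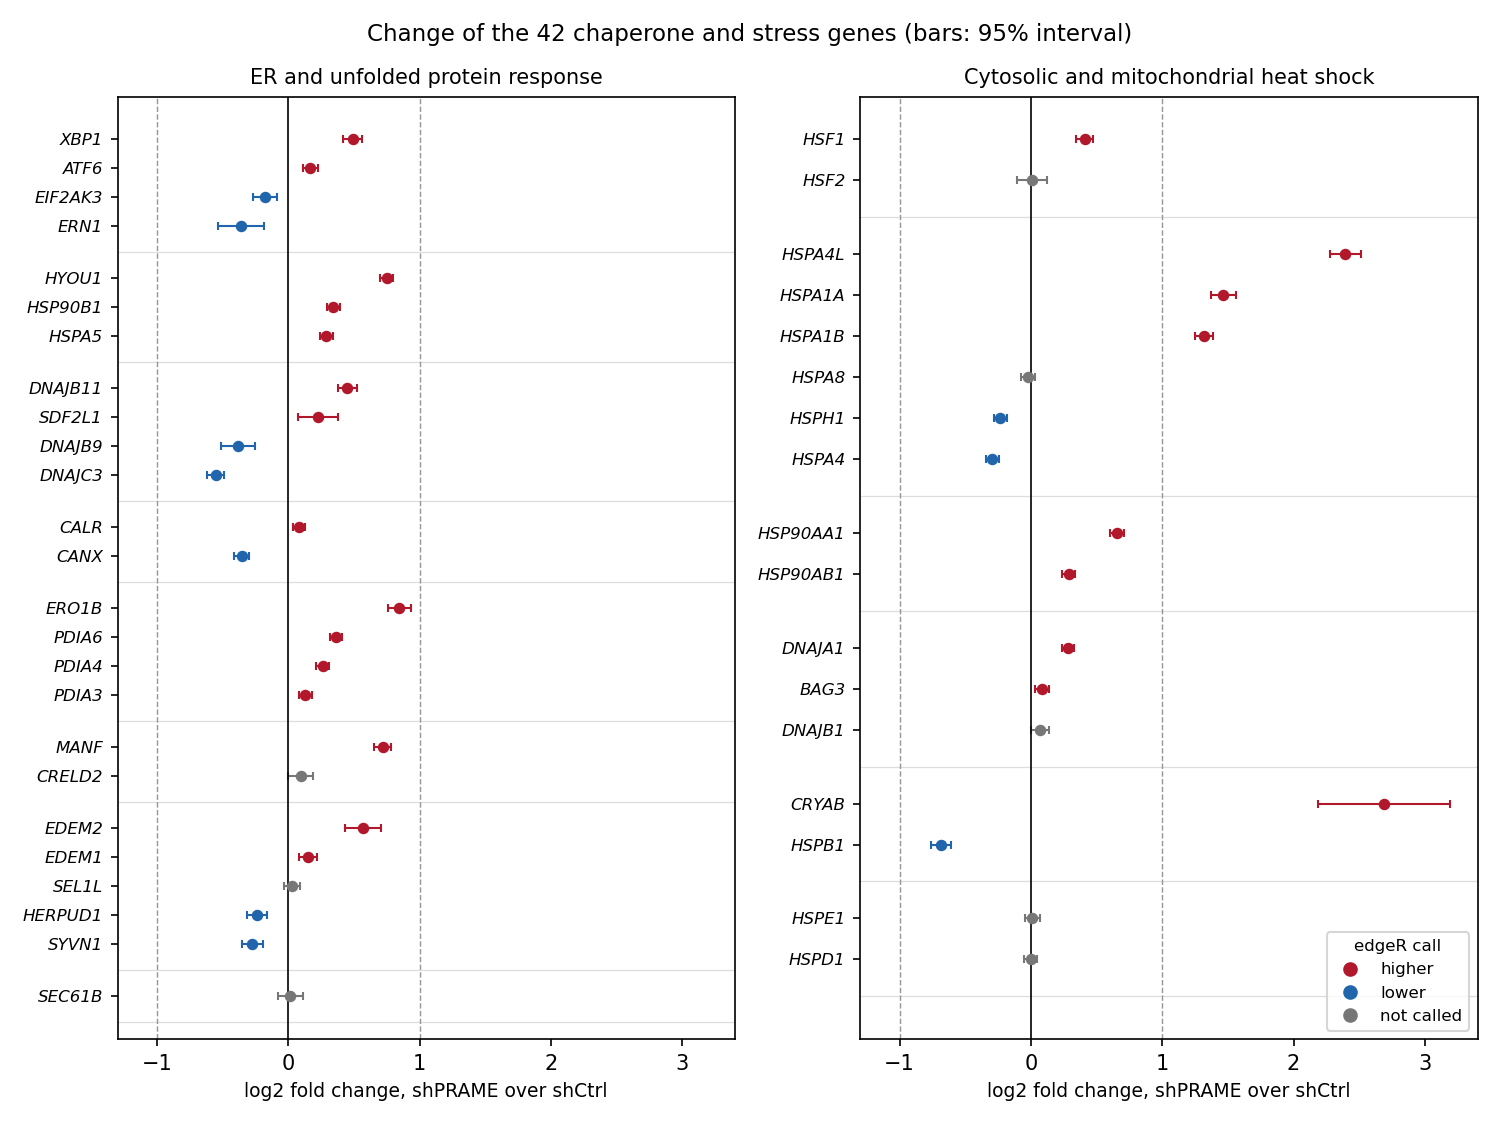
Log2 fold change of shPRAME over shCtrl (horizontal axis) for each ER gene (left) and heat shock gene (right), grouped by role in the order of the text, with 95% intervals as bars and the edgeR call as colour. Dashed lines mark a 2-fold change: no ER gene reaches them, and CRYAB, HSPA4L, HSPA1A and HSPA1B lie beyond the upper line.

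The sensors of the unfolded protein response moved in both directions and little. ERN1, the kinase and nuclease that splices XBP1 mRNA (chromosome 17, 64039142 to 64130144), had 10.1, 9.88 and 10.3 CPM in the shCtrl libraries and 8.10, 8.30 and 7.15 CPM in the shPRAME libraries. The shPRAME libraries were all lower, with no overlap (log2 fold change -0.36, SE 0.0817, edgeR adjusted p = 7.29e-04). EIF2AK3, the kinase that phosphorylates the translation factor eIF2alpha (chromosome 2, 88556741 to 88628145), had 32.5, 34.2 and 34.0 CPM in the shCtrl libraries and 30.4, 29.3 and 29.2 CPM in the shPRAME libraries, again lower without overlap (log2 fold change -0.18, SE 0.0427, edgeR adjusted p = 0.00119). ATF6, the membrane-bound factor that is cut free in the Golgi (chromosome 1, 161766320 to 161964070), had 122.9, 122.3 and 127.6 CPM in the shCtrl libraries and 141.2, 141.1 and 136.6 CPM in the shPRAME libraries, and here the shPRAME libraries were all higher (log2 fold change 0.17, SE 0.0278, edgeR adjusted p = 3.46e-05). ERN1 and EIF2AK3 thus fell 1.28-fold and 1.13-fold and ATF6 rose 1.12-fold, beside neighbours with a median of 0.22.

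XBP1, the factor that IRE1 activates by splicing and whose own promoter holds an ERSE (chromosome 22, 28794560 to 28800569), rose more. It had 55.1, 56.4 and 56.2 CPM in the shCtrl libraries and 82.1, 77.6 and 76.3 CPM in the shPRAME libraries, a 1.41-fold difference with all shPRAME libraries above all shCtrl libraries (log2 fold change 0.49, SE 0.0343, edgeR adjusted p = 7.23e-10). Counts per gene do not separate spliced from unspliced XBP1 mRNA, so the active form was not measured.

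The large luminal chaperones all rose. HSPA5, the ER member of the HSP70 family and the main target by which ER stress is usually read (chromosome 9, 125234853 to 125241343), had 782.4, 805.5 and 795.4 CPM in the shCtrl libraries and 980.9, 968.4 and 964.2 CPM in the shPRAME libraries. The difference was 1.22-fold, with the groups apart (log2 fold change 0.29, SE 0.0225, edgeR adjusted p = 3.03e-09). HSP90B1, the ER member of the HSP90 family, rose from 1338 ± 14.9 to 1697 ± 32.0 CPM (1.27-fold). HYOU1, the ER member of the HSP110 family, which recharges HSPA5 with ATP (chromosome 11, 119044188 to 119057205), had 208.9, 208.8 and 208.2 CPM in the shCtrl libraries and 351.4, 356.3 and 345.1 CPM in the shPRAME libraries. This was the second largest rise among the ER genes at 1.68-fold (log2 fold change 0.75, SE 0.0231, edgeR adjusted p = 1.19e-14), and its 40 nearest tested genes had a median log2 fold change of 0.49. HSPA5 moved nearly in step with HSP90B1, with 0.590 to 0.599 HSPA5 counts per HSP90B1 count in shCtrl and 0.567 to 0.579 in shPRAME.

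The J-domain co-chaperones, which bring clients to HSPA5 and start its ATP cycle, split. DNAJB11 (ERdj3) rose from 77.7 ± 2.62 to 105.9 ± 3.85 CPM. Its partner SDF2L1 rose from 13.4 ± 1.27 to 15.7 ± 0.745 CPM, a call that was lost without shCtrl replicate 3 (log2 fold change 0.15, edgeR adjusted p = 0.0600). DNAJC3 (P58IPK), an inhibitor of PERK (chromosome 13, 95677139 to 95794988), had 136.6, 141.4 and 144.5 CPM in the shCtrl libraries and 97.0, 97.4 and 93.5 CPM in the shPRAME libraries. It was the ER gene that fell most, 1.47-fold and without overlap (log2 fold change -0.55, SE 0.0298, edgeR adjusted p = 2.17e-11). DNAJB9 (ERdj4), which keeps IRE1 inactive and is a target of XBP1 (chromosome 7, 108569874 to 108574850), had 18.7, 20.3 and 21.3 CPM in the shCtrl libraries and 15.4, 15.7 and 15.0 CPM in the shPRAME libraries and was also lower in every shPRAME library (log2 fold change -0.39, SE 0.0614, edgeR adjusted p = 2.31e-05).

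The lectin chaperones moved apart. CANX, the membrane-bound calnexin (chromosome 5, 179678656 to 179731641), had 1073, 1127 and 1149 CPM in the shCtrl libraries and 892.1, 868.7 and 861.8 CPM in the shPRAME libraries. Every shPRAME library was lower, by 1.28-fold on average (log2 fold change -0.35, SE 0.0270, edgeR adjusted p = 2.50e-09). Its 40 nearest tested genes had a median of -0.36. CALR, the soluble calreticulin, rose from 854.1 ± 7.96 to 904.6 ± 2.82 CPM, a change of 1.06-fold. The library ratio of CALR to CANX counts was 0.738 to 0.793 in shCtrl and 1.02 to 1.05 in shPRAME.

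All 4 genes of disulfide formation rose. ERO1B, an oxidase that passes oxidizing power to the isomerases (chromosome 1, 236215101 to 236281958), had 29.5, 30.4 and 30.8 CPM in the shCtrl libraries and 56.6, 54.5 and 51.8 CPM in the shPRAME libraries. At 1.80-fold it was the largest rise of any ER gene (log2 fold change 0.84, SE 0.0413, edgeR adjusted p = 5.90e-12). The isomerases moved less: PDIA6 rose from 426.3 ± 0.554 to 549.0 ± 5.28 CPM (1.29-fold), PDIA4 from 358.1 ± 1.99 to 429.6 ± 11.3 CPM (log2 fold change 0.26) and PDIA3 from 472.5 ± 9.43 to 516.3 ± 8.41 CPM (1.09-fold). MANF, a small stress-induced protein that binds HSPA5 and is also secreted (chromosome 3, 51385291 to 51389397), had 75.7, 70.7 and 72.0 CPM in the shCtrl libraries and 121.2, 119.1 and 119.3 CPM in the shPRAME libraries. It rose 1.65-fold with the groups well apart (log2 fold change 0.72, SE 0.0307, edgeR adjusted p = 9.44e-13), while its neighbours had a median of -0.12. CRELD2, another secreted ER stress protein, did not pass at 32.5 ± 1.73 CPM in shCtrl and 34.7 ± 0.338 CPM in shPRAME (log2 fold change 0.095, 95% interval 0.00010 to 0.19, edgeR adjusted p = 0.0656); without shCtrl replicate 1 it passed (log2 fold change 0.14, edgeR adjusted p = 0.00974).

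Genes of ER-associated degradation, which returns misfolded chains to the cytosol, moved in both directions. EDEM2, which trims mannose from chains marked for disposal (chromosome 20, 35115364 to 35147336), had 19.0, 18.2 and 16.3 CPM in the shCtrl libraries and 28.4, 26.7 and 24.5 CPM in the shPRAME libraries. The groups did not overlap and the rise was 1.49-fold (log2 fold change 0.57, SE 0.0654, edgeR adjusted p = 4.97e-07). Its relative EDEM1 rose from 116.0 ± 1.40 to 128.7 ± 5.22 CPM. SYVN1 (HRD1), the ubiquitin ligase of the pathway, fell from 49.2 ± 1.43 to 40.7 ± 1.37 CPM, and HERPUD1, which recruits it and is a sensitive stress target, fell 1.18-fold (log2 fold change -0.24, SE 0.0364, edgeR adjusted p = 1.61e-05). SYVN1 overlaps MRPL49 on chromosome 11, which had 4657 counts in shCtrl and 4558 in shPRAME, so its value is uncertain if the counting ignored strand. SEL1L, the adaptor of SYVN1, did not pass (log2 fold change 0.028, 95% interval -0.035 to 0.090, edgeR adjusted p = 0.409). SEC61B, a subunit of the channel through which chains enter the ER, did not pass either (log2 fold change 0.016, 95% interval -0.080 to 0.11, edgeR adjusted p = 0.763).

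**Figure D3:**
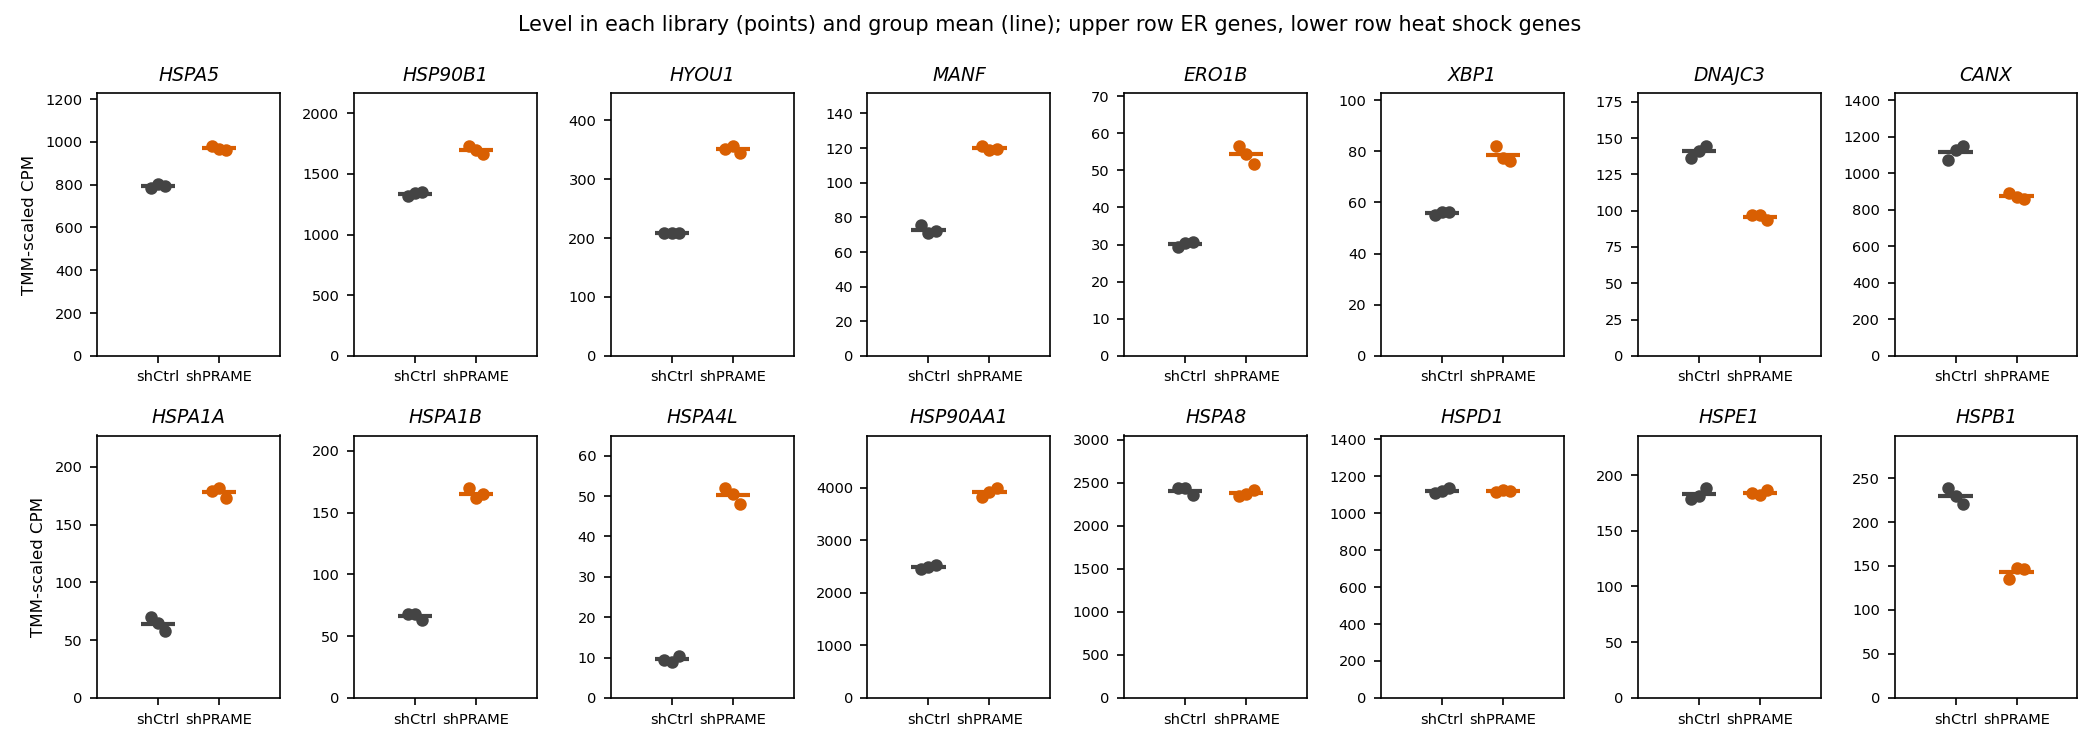
TMM-scaled CPM (vertical axes, from 0, with a scale of their own for each gene) in the 3 shCtrl (grey) and 3 shPRAME (orange) libraries, with group means as lines, for 8 ER genes (upper row) and 8 heat shock genes (lower row). HSPA1A, HSPA1B and HSPA4L show the widest gaps, DNAJC3, CANX and HSPB1 are lower in shPRAME, and the groups overlap for HSPA8, HSPD1 and HSPE1.

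Of the heat shock factors 1 of 2 changed. HSF1, the stress-activated factor (chromosome 8, 144291604 to 144314720), had 62.6, 60.4 and 60.9 CPM in the shCtrl libraries and 80.3, 82.2 and 81.9 CPM in the shPRAME libraries. It rose 1.33-fold without overlap (log2 fold change 0.41, SE 0.0305, edgeR adjusted p = 1.67e-09), beside neighbours with a median of 0.33. HSF2, a developmental relative (chromosome 6, 122399551 to 122433119), had 19.7, 20.6 and 21.3 CPM in the shCtrl libraries and 20.2, 20.9 and 20.7 CPM in the shPRAME libraries, and its groups overlapped (log2 fold change 0.0071, 95% interval -0.11 to 0.12, edgeR adjusted p = 0.91). HSF1 is switched on by trimer formation and phosphorylation, which mRNA counts do not show. HSF1 overlaps DGAT1, with 1038 counts in shCtrl and 1562 in shPRAME against 5965 and 8170 for HSF1, so its value is uncertain if the counting ignored strand.

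The inducible HSP70 genes rose together. HSPA1A (chromosome 6, 31815543 to 31817942) had 70.0, 65.1 and 58.1 CPM in the shCtrl libraries and 179.1, 181.7 and 172.9 CPM in the shPRAME libraries. HSPA1B, which lies 9795 bases further along (chromosome 6, 31827738 to 31830254), had 68.3, 67.6 and 63.1 CPM in the shCtrl libraries and 169.9, 161.4 and 164.7 CPM in the shPRAME libraries. Every shPRAME library was more than 2-fold above every shCtrl library for both genes. The rises were 2.76-fold (log2 fold change 1.46, SE 0.0455, edgeR adjusted p = 1.33e-14) and 2.49-fold (log2 fold change 1.32, SE 0.0332, edgeR adjusted p = 8.27e-16). These genes are near-identical copies and their reads can be divided wrongly: the ratio of HSPA1A to HSPA1B counts was 0.921 to 1.03 over all shCtrl libraries and 1.05 to 1.13 over all shPRAME libraries. Added together they went from 130.7 ± 8.71 to 343.3 ± 5.70 CPM, or 2.63-fold (log2 fold change 1.39, edgeR adjusted p = 1.02e-15), which does not depend on the division.

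The copies also resemble each other upstream, where 92.0% of 301 aligned positions of their RefSeq windows were identical. HSF1 binds repeats of GAA in alternating direction. A heat shock element of 3 units, which reads GAA, TTC and GAA with 2 bases of any kind between units, was found on either strand in 2 of 15 heat shock windows (HSPA8 and DNAJA1), in 0 of 24 ER windows and in 0.487% of all windows. The looser pair of units, GAANNTTC or TTCNNGAA, which every 3-unit element also holds, was found in 5 of 15 heat shock windows, in 0 of 24 ER windows and in 13.7% of all windows. These counts depend on which start is taken. Over every listed window the 3-unit element was found in 5 of 15 heat shock genes (HSP90AA1, HSP90AB1 and HSPD1 being added), in 0 of 24 ER genes and in 0.608% of all genes. The pair was then found in 10 of 15 heat shock genes, in 1 of 24 ER genes (CANX) and in 16.2% of all genes. The parts outside annotated exons of the HSPA1A and HSPA1B windows are given with the pair and its spacer in capitals, since these are the inducible genes that moved together. Below them stand the 3-unit sites of HSPA8 and DNAJA1 and the pair of HSPB1. The DNAJA1 site lies 3 to 15 bases after the start. The HSPA8 sites lie within the gene's full span, before a start 326 bases inside it. HSPA8, and CRELD2 among the ER sites above, did not pass the test and were added to show every gene with a site in the first listed window.
HSPA1A (chr6:31815293-31815463, strand +): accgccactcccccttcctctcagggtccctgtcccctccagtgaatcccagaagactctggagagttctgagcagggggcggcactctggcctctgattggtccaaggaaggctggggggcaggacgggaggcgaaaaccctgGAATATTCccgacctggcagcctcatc
HSPA1B (chr6:31827488-31827734, strand +): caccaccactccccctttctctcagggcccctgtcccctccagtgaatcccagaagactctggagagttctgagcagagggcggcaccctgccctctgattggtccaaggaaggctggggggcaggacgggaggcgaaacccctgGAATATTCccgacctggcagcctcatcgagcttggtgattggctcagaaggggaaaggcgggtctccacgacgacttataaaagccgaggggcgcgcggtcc
HSPA8 (chr11:123062349-123062371, strand -): agcttGAAagTTCcaGAAcgctg
HSPA8 (chr11:123062174-123062196, strand +): tcttaGAAccTTCcaGAAggggc
DNAJA1 (chr9:33025271-33025293, strand +): gggcgGAActTTCcaGAAcgctc
HSPB1 (chr7:76302486-76302503, strand +): cgagaGAAggTTCcagat
Of the genes with these letters in the first listed window some rose (HSPA1A, HSPA1B, DNAJA1), HSPB1 fell and HSPA8 did not pass. Of the 10 ER genes with ERSE or ERSE-II letters 7 rose, 2 fell and 1 did not pass (median log2 fold change 0.26). Of the 14 without them 7 rose, 5 fell and 2 did not pass (median 0.089). Among all genes tested 37.7% were higher and 36.8% lower. This split uses the first listed window: PDIA6, which rose, holds the letters only in another listed window, and the CANX site lies before an internal start. Whether the letters go with the change was not tested. A match is a description of letters, not of a bound site.

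The rest of the HSP70 and HSP110 family diverged. HSPA4L, an HSP110 relative known mainly from testis (chromosome 4, 127781796 to 127840733), had 9.44, 8.96 and 10.3 CPM in the shCtrl libraries and 52.0, 50.4 and 48.1 CPM in the shPRAME libraries. The groups were far apart, with a 5.25-fold rise (log2 fold change 2.39, SE 0.0554, edgeR adjusted p = 2.64e-16). It remained a minor transcript, at 4.65 CPM per kilobase of transcript in shPRAME against 76.9 for HSPA4. The length used is that of the longest annotated transcript, 10790 bases for HSPA4L and 4825 bases for HSPA4. The abundant HSP110 genes went the other way: HSPA4 (chromosome 5, 133052013 to 133106449) had 444.2, 464.4 and 456.9 CPM in the shCtrl libraries and 366.5, 375.4 and 370.9 CPM in the shPRAME libraries, 1.23-fold lower without overlap (log2 fold change -0.30, SE 0.0234, edgeR adjusted p = 4.14e-09). HSPH1 (HSP105), which is heat-inducible (chromosome 13, 31134973 to 31162388), had 496.7, 502.0 and 509.0 CPM in the shCtrl libraries and 428.7, 433.7 and 421.7 CPM in the shPRAME libraries and was also lower in every shPRAME library (log2 fold change -0.23, SE 0.0223, edgeR adjusted p = 5.36e-08). The neighbours of HSPA4 and HSPH1 had medians of -0.41 and -0.19.

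HSPA8 (HSC70), the constitutive HSP70 and the most abundant of the 42 mRNAs per kilobase in shCtrl, did not pass. It had 2437, 2441 and 2356 CPM in the shCtrl libraries and 2353, 2366 and 2412 CPM in the shPRAME libraries, with overlapping groups (log2 fold change -0.021, 95% interval -0.072 to 0.030, edgeR adjusted p = 0.447). The inducible form therefore gained on it: HSPA8 counts were 34.8 to 40.5 times those of HSPA1A in shCtrl libraries and 13.0 to 13.9 times in shPRAME libraries.

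Both cytosolic HSP90 genes rose, the inducible one more. HSP90AA1 (HSP90 alpha) had 2443, 2495 and 2522 CPM in the shCtrl libraries and 3829, 3921 and 3992 CPM in the shPRAME libraries, 1.57-fold higher and without overlap (log2 fold change 0.65, SE 0.0248, edgeR adjusted p = 1.93e-13). HSP90AB1 (HSP90 beta) rose from 2417 ± 25.3 to 2950.4 ± 14.4 CPM (1.22-fold). The ratio of HSP90AA1 to HSP90AB1 counts was 1.02 to 1.04 in shCtrl and 1.29 to 1.35 in shPRAME. HSP90AA1 made up 70.4% of the gain of its class: its mean rose by 1428 CPM and the sum of the 17 heat shock genes by 2028 CPM. Per kilobase of transcript HSPA8, HSP90AB1 and HSP90AA1 were the most abundant of the 42 in shCtrl, at 979.0, 903.8 and 708.3 CPM, and in shPRAME HSP90AA1 and HSP90AB1 stood highest at 1115 and 1103.

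Of the co-chaperones that heat and proteotoxic stress usually raise with HSPA1A, DNAJB1 and BAG3 changed little and DNAJA1 rose more. DNAJB1 (HSP40) stood at 108.0 ± 2.18 CPM in shCtrl and 113.4 ± 5.49 CPM in shPRAME and did not pass (log2 fold change 0.070, 95% interval -0.0023 to 0.14, edgeR adjusted p = 0.0744); without shPRAME replicate 3 it passed (log2 fold change 0.12, edgeR adjusted p = 0.00382). It overlaps TECR, with 6146 and 5930 counts against 10517 and 11358 for DNAJB1, and is uncertain in the same way. BAG3, the nucleotide exchange factor that couples HSP70 to autophagy (chromosome 10, 119651380 to 119677819), had 117.7, 116.9 and 117.2 CPM in the shCtrl libraries and 126.3, 122.7 and 124.4 CPM in the shPRAME libraries. Its groups did not overlap, but the rise was 1.06-fold (log2 fold change 0.086, SE 0.0262, edgeR adjusted p = 0.00704). DNAJA1, another HSP40, rose from 268.6 ± 2.27 to 326.9 ± 1.23 CPM (1.22-fold).

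The small heat shock proteins, which hold aggregating chains without ATP, went in opposite directions. HSPB1 (HSP27; chromosome 7, 76302673 to 76304292) had 238.7, 229.1 and 221.0 CPM in the shCtrl libraries and 134.7, 147.6 and 146.5 CPM in the shPRAME libraries. It fell 1.61-fold, the largest fall of all 42 genes, and the shPRAME libraries all lay lower (log2 fold change -0.68, SE 0.0350, edgeR adjusted p = 1.11e-11). CRYAB, alpha B-crystallin (chromosome 11, 111908564 to 111923740), was close to absent, with counts of 7, 16 and 14 in shCtrl and of 86, 77 and 85 in shPRAME. Its 6.47-fold rise was the largest of the 42 and the least precise (log2 fold change 2.69, 95% interval 2.19 to 3.19, edgeR adjusted p = 1.66e-08), and at 2.22 CPM per kilobase in shPRAME it stayed far below HSPB1 at 98.2.

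Neither mitochondrial chaperonin gene passed. HSPD1 (HSP60) and HSPE1 (HSP10) lie head to head on chromosome 2, with 104 bases between their starts. HSPD1 starts at 197500274 on the minus strand and HSPE1 at 197500379 on the plus strand. HSPD1 had 1110.5, 1120.3 and 1136 CPM in the shCtrl libraries and 1113, 1128 and 1122 CPM in the shPRAME libraries. HSPE1 had 178.5, 181.1 and 188.4 CPM in the shCtrl libraries and 184.2, 181.8 and 186.5 CPM in the shPRAME libraries. The groups overlapped for both genes, and the intervals are narrow (HSPD1 log2 fold change -0.0018, 95% interval -0.049 to 0.045, edgeR adjusted p = 0.945; HSPE1 log2 fold change 0.012, 95% interval -0.044 to 0.068, edgeR adjusted p = 0.697). HSPD1 counts were 6.03 to 6.22 times those of HSPE1 in shCtrl and 6.02 to 6.20 times in shPRAME.

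The chromosomal surroundings of the genes moved as well. For each gene the median log2 fold change of the 40 nearest tested genes on its chromosome was computed, and it ranged from -0.41 for HSPA4 to 0.49 for HYOU1. When this shift was taken out in the fit, 12 ER genes were higher and 10 lower, against 15 and 7 without it, and 12 heat shock genes were higher and 2 lower, against 9 and 3. The medians became 0.065 for the ER genes and 0.16 for the heat shock genes, while 71.4% of all genes passed, 36.2% higher and 35.2% lower. HSPA4L, CRYAB, HSPA1A and HSPA1B kept log2 fold changes of 2.01, 2.36, 1.27 and 1.12. ATF6, SDF2L1, CANX, HSPH1 and HSP90AB1 no longer passed (-0.052, 0.084, 0.012, -0.045 and -0.0086, edgeR adjusted p = 0.104, 0.313, 0.713, 0.0819 and 0.747). HSPA4 turned from lower to higher (0.11, edgeR adjusted p = 4.27e-04) and EDEM1 from higher to lower (-0.073, edgeR adjusted p = 0.0433). Of the genes that had not passed, HSPA8, in a raised stretch of chromosome 11, became lower (-0.48, edgeR adjusted p = 1.05e-11), as did CRELD2, SEL1L and SEC61B (-0.19, -0.16 and -0.19). DNAJB1, HSPD1 and HSPE1 became higher (0.19, 0.19 and 0.19). Whether these stretches moved through gene copy number or otherwise was not tested. The neighbour median entered the fit as a fixed value, so the adjusted p-values of that fit leave out its own uncertainty. Calls on small remaining changes, such as those of HSPA4 and EDEM1, are therefore less certain than their p-values state.

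**Figure D4:**
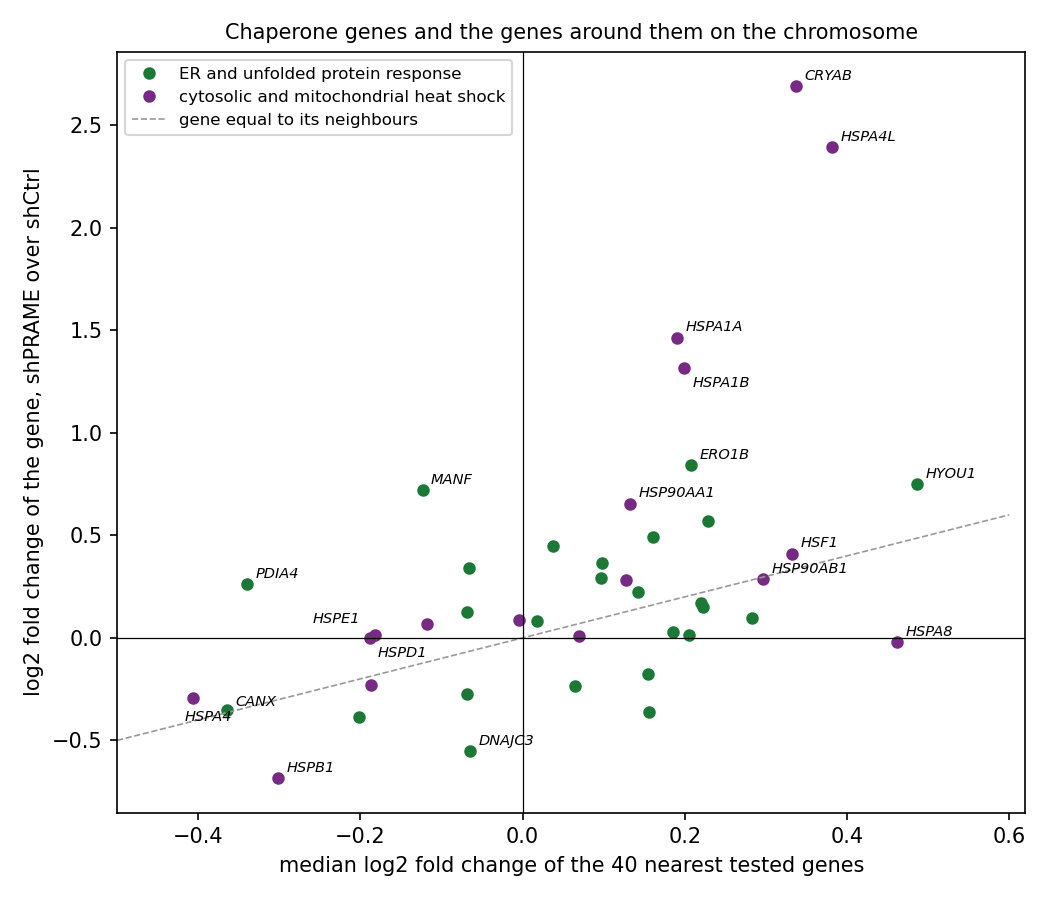
Log2 fold change of each of the 42 genes (vertical axis) against the median log2 fold change of its 40 nearest tested genes on the chromosome (horizontal axis), ER genes in green and heat shock genes in purple. Genes on the dashed line moved as their neighbours did, as CANX and HSP90AB1 nearly did, while HSPA4L, CRYAB, HSPA1A, HSPA1B and MANF lie far above it and HSPA8 below it.

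Other genes of both pathways were taken from lists set apart from the members. Of 54 tested genes of ER folding, translocation and degradation 29 rose, 12 fell and 13 did not pass (median log2 fold change 0.082). Among all genes tested 37.7% were higher and 36.8% lower. None in this list changed 2-fold, against 18.6% of all genes. The tested genes of this list had means of at least 8.60 CPM. Of all 15954 tested genes, 9487 had a mean of at least 10 CPM, and no share at matched level was computed. MBTPS1, the protease that makes the first cut in ATF6, rose from 135.0 ± 2.10 to 208.0 ± 4.26 CPM and the disulfide isomerase TXNDC5 rose from 219.9 ± 1.60 to 299.6 ± 4.63 CPM. CREB3L2, a factor of the ATF6 type, fell from 528.9 ± 10.7 to 334.1 ± 4.97 CPM, and UBE2G2, a ubiquitin-conjugating enzyme of ER-associated degradation, fell from 176.9 ± 1.59 to 111.8 ± 1.81 CPM on a stretch of chromosome 21 whose neighbours had a median of -1.02.

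Of 47 tested genes listed as cytosolic and mitochondrial chaperones 24 rose, 15 fell and 8 did not pass (median 0.12), over a range of -1.57 to 1.00. The shares of all genes were 37.7% higher and 36.8% lower. A change of 2-fold or more was reached by 1 upwards and by 3 downwards, against 10.1% and 8.43% of all genes. The only gene of this list to rise 2-fold was SERPINH1 (HSP47), a heat-inducible collagen chaperone that itself resides in the ER. It rose from 83.8 ± 4.15 to 167.7 ± 1.15 CPM. GRPEL1, the exchange factor of mitochondrial HSP70, rose from 42.7 ± 0.489 to 80.7 ± 1.78 CPM. CCT8, a subunit of the cytosolic chaperonin, fell from 449.9 ± 6.04 to 270.9 ± 1.85 CPM beside chromosome 21 neighbours with a median of -0.77, and DNAJB4, an HSP40, fell from 33.1 ± 0.957 to 15.6 ± 0.717 CPM.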

How the data were processed

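PolyA RNA of 6 A375SM libraries (3 shCtrl, 3 shPRAME) was analysed from whole-number counts per NCBI gene identifier, 1 table per library, as the authors deposited them. GRCh38 and hg38 are the builds in the submitters' processing notes, which list the tools Salmon, STAR and fastp without versions. The strand setting, the annotation and the program behind the counts were not given in the sources used here. Each table had 40929 rows. The 34 rows that repeat an identifier left 40895 identifiers, of which 40789 were in the RefSeq gene table (GRCh38.p14) that gave symbols and coordinates.

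Genes were filtered with filterByExpr, scaled by TMM and tested with edgeR 4.0.16 (glmQLFit, glmQLFTest, R 4.3.3) over all 15954 genes that passed, with Benjamini-Hochberg adjustment and a threshold of 0.05. Levels are TMM-scaled CPM (a gene's counts relative to the scaled library total), as mean ± SD of 3 libraries, and intervals are 95%. Values per kilobase divide by the longest GENCODE transcript of each gene, which need not be the form expressed. With 30842788 to 34107332 counts per library, 3 counts equal 0.0880 to 0.0973 CPM. Intervals and this floor cover counting error and library spread only. In data simulated on these libraries (15709 genes tested), 26, 35, 44 and 50 of 50 genes changed 1.2-, 1.5-, 2- and 4-fold were recovered, and 14 unchanged genes were called. Only these genes were changed in the simulation, against 74.4% of genes called in the real comparison, so its rates may not hold there. Motifs were searched with Python 3.11.15 and windows aligned with Biopython 1.88, on the first start listed per gene. The search over every listed start was added after the data were seen.

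The members and gene lists were chosen with earlier results of these data known. Values per library are given for sensors and factors, HSPA5, HSPA1A, HSPA1B, HSPD1, HSPE1 and, in each class, the 4 highest and 4 lowest fold changes among called members of at least 1 CPM. HSPA8 and HSP90AA1 were added after their values were seen. From each list of other genes up to 2 per direction with the smallest adjusted p are named. Protein sequences were not used here. Alternatives were RLE scaling, library totals, no filter, a filter of 1 CPM in 3 libraries, DESeq2 1.42.0, limma 3.58.1 voom, a test against 1.2-fold, a replicate block, the regional shift of the 40 nearest genes and leaving out each library.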

Additional observations from a re-analysis of the deposited data

How the results depend on the processing

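RLE scaling, DESeq2, limma voom and the 1 CPM filter changed no call among the 42 genes. A replicate block left 15 ER genes higher and 7 lower and 9 heat shock genes higher and 3 lower; the same-numbered libraries do not pair (correlations of their deviations -0.076, -0.15 and -0.12 over 13543 genes). Of 632 comparisons of single genes, 584 kept direction and call, 19 lost the call, 10 gained it and 19 changed sign. Direction and call were kept in all of them by 17 genes. The comparisons cover 15 settings and 2 more, for HSPA1A and HSPA1B with their counts added together. Against a 1.2-fold change 8 ER genes were higher and 3 lower, and 1 heat shock gene was lower. The ER median of 0.15 became 0.20 with library totals and 0.065 with the regional shift removed, and ran from 0.13 to 0.18 without single libraries. The heat shock median of 0.086 became 0.14 and 0.16, and ran from 0.080 to 0.12. Without single libraries 14 to 16 ER genes were higher and 7 lower, and 9 to 10 heat shock genes were higher and 3 lower. With the regional shift removed the sign changed for SEC61B (-0.19), ATF6 (-0.052), HSF2 (-0.062), HSPA4 (0.11), HSP90AB1 (-0.0086), HSPD1 (0.19), SEL1L (-0.16), CRELD2 (-0.19), CANX (0.012) and EDEM1 (-0.073). With library totals it changed for HSPA8 (0.030) and HSPD1 (0.049), and with no filter for HSPD1 (0.0043). Without single libraries it changed for HSF2 (-0.025 to 0.033), HSPD1 (-0.012 to 0.0094) and HSPE1 (-0.0069 to 0.033), none of which passed the test with all libraries. The cause of these changes was not tested. Depth limits CRYAB most, at 7 to 16 counts in shCtrl.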
